A study of Homo sapiens with 6 samples.

Results

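Integrins and laminins, the receptor chains that hold a cell to its matrix and the basement membrane chains that several of them bind, were followed in irradiated HK-2 cells. The members were chosen by gene name, with earlier results of these data known. They are every gene that encodes an integrin alpha or beta chain or a laminin alpha, beta or gamma chain. This gave 38 genes of the 38648 listed genes and gene copies, namely 18 integrin alpha chains, 8 integrin beta chains, 5 laminin alpha chains, 4 laminin beta chains and 3 laminin gamma chains. No member had a second listed copy, and 12 names that begin in the same way, such as the antisense gene ITGB2-AS1 and the binding protein gene ITGB1BP1, were left out. HK-2 is an established line of human kidney tubule cells. Bulk mRNA was measured in 2 groups of 3 libraries, both made from HK-2 lines infected with lentivirus, given 8 Gy of X-rays once and harvested on day 7. The IR+PR-LV line carried a PRDM16 overexpression lentivirus and the IR+NC-LV line a control lentivirus. The IR+NC-LV libraries are called the controls here. PRDM16 is a zinc finger transcription regulator. Both groups were irradiated and infected, so nothing here compares irradiated with unirradiated cells. The study's methods describe puromycin selection of each infected line, and the labels number the libraries of a group without saying whether they came from separate cultures. P-values therefore measure the spread between these libraries, which may be technical.

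An integrin is a pair of an alpha and a beta chain that spans the membrane, with the matrix ligand outside and talin, kindlin and the actin cytoskeleton inside. The beta1 chain (ITGB1) pairs with the largest number of alpha chains and serves binding to collagens, laminins and fibronectin. The alphaV chain (ITGAV) pairs with beta1, beta3, beta5, beta6 or beta8, and several of these pairs bind the arginine-glycine-aspartate motif and release latent TGF-beta. A laminin is a trimer of an alpha, a beta and a gamma chain, named by the numbers of its chains, and it forms the sheet-like scaffold of a basement membrane together with type IV collagen, nidogen and perlecan. The tubules of the kidney rest on such a membrane, and alpha3beta1 (ITGA3 with ITGB1) and alpha6 integrins are the usual laminin receptors of epithelia.

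ITGB1 led the beta chains and ITGA3 the alpha chains in every library. None of the 31 members that could be tested differed between the groups at an adjusted p of 0.05 in edgeR's quasi-likelihood test. Of all 15340 genes tested, 10 did, or 0.0652%. Unadjusted p was under 0.05 for 2 members, ITGAM (lower in IR+PR-LV) and ITGB1 (higher in IR+PR-LV), which is 6.45% of the members tested against 10.5% of all genes. DESeq2, run as an alternative, placed these 2 members past the adjusted threshold, 6.45% of the members tested against 1.13% of all genes.

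The depth ran from 13407074 to 28540041 assigned counts per library, so that 3 counts, taken as the limit of detection, were worth 0.105 to 0.224 CPM (counts scaled to a common library total). This limit covers counting error only. PRDM16 itself had 2, 0 and 1 counts in the controls and 14, 10 and 8 under IR+PR-LV. The groups did not overlap, at 0.0637 ± 0.0600 against 0.542 ± 0.256 CPM (SD, n = 3 each, exact two-sided permutation p = 0.1, the smallest that 3 against 3 allows). PRDM16 was too low for the fit across all genes. The epithelial markers KRT7, KRT8, KRT18, KRT19 and EPCAM stood at 49.9 TPM (a share of the library scaled for gene length) or more in both groups. CDH1, another epithelial marker, was low at 0.343 TPM in the controls. The 9 proximal tubule markers were mixed. GGT1 stood at 74.4 TPM in the controls and 65.4 TPM under IR+PR-LV, and MME and AQP1 were at 2.91 and 2.82 TPM in the controls. CUBN, SLC34A1 and SLC5A2 averaged under 1 TPM in each group, and LRP2, SLC22A6 and ANPEP had 3, 1 and 19 counts over all 6 libraries. The cells are called by the name of their line here.

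Promoter sequences are shown for ITGB1 and ITGAM, the members with an unadjusted p under 0.05, so that the letters before their start sites can be set beside their values. Both are the 250 bases before the start of the gene in RefSeq's GRCh38.p14 annotation, written 5′ to 3′ on the gene's own strand. ITGB1 lies on the minus strand with its window at chr10:32958231-32958480, and capitals mark each GGGCGG or its reverse complement CCGCCC, the letters of the GC box. ITGAM lies on the plus strand with its window at chr16:31259725-31259974, and capitals mark GAGGAA, the core letters of sites for ETS factors such as PU.1.
ITGB1: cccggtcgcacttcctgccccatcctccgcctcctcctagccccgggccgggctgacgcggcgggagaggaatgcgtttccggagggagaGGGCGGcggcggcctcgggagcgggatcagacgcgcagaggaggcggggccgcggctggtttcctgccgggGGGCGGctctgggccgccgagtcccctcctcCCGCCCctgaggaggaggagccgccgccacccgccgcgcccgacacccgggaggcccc
ITGAM: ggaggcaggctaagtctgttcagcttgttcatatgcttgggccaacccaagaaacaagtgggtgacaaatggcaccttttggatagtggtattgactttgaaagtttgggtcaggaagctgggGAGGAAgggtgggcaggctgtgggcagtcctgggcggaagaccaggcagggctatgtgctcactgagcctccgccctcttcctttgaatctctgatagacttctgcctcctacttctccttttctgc
The ITGB1 window shown held 3 GC boxes and 1 GAGGAA and was 78.4% G or C. A second ITGB1 window, at chr10:32935559-32935808, held 0 GC boxes and 0 GAGGAA and was 41.6% G or C. The ITGAM window held 1 GAGGAA and 2 GC boxes and was 53.2% G or C. On either strand and with no overlap between these motifs counted, GGGCGG was found in 42.6% of all 35116 promoter windows of this length and in 51.5% of 33 windows of the 26 members with an entry. GAGGAA was found in 23.6% of all windows and 33.3% of the members' windows. TGANTCA, the letters of the AP-1 site, was found in 6.57% of all windows and 6.06% of the members' windows, in LAMA3 and LAMB3. A match of letters is a description and not a shown binding site.

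ITGB1 was by far the most abundant integrin mRNA. Its level was 1805, 1886 and 1867 TPM in the controls and 2007, 2220 and 2163 TPM under IR+PR-LV, which placed it at rank 49 of all listed genes by mean TPM. It made up 89.5% ± 0.556 (SD, n = 6) of the summed TPM of the beta chains. ITGB3, the beta3 chain of the vitronectin receptor and of the platelet fibrinogen receptor, came next at 95.4 ± 3.95 TPM (SD, n = 6), followed by ITGB5, another partner of alphaV, at 72.4 ± 3.15 TPM. ITGB6 and ITGB8, the partners of alphaV best known for activating TGF-beta, stood at 24.3 ± 2.46 and 18.2 ± 1.41 TPM. By library, ITGB5 was at 69.7, 71.2 and 71.5 TPM in the controls and 78.3, 73.2 and 70.3 TPM under IR+PR-LV. ITGB6 was at 23.1, 26.3 and 21.0 TPM in the controls and 23.0, 27.8 and 24.3 TPM under IR+PR-LV. ITGB2, the beta chain of leukocyte integrins, stood at 19.2 ± 1.85 TPM, and the ranges of ITGB6 and ITGB2 and of ITGB2 and ITGB8 overlapped. ITGB4, whose long tail anchors hemidesmosomes, was at 2.79 ± 0.542 TPM. ITGB7 was at the bottom with 2 to 15 counts per library, and 51.8% of its exon bases also lie in ZNF740 on the opposite strand, so its counts are uncertain.

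Among alpha chains, ITGA3 and ITGAV held most of the mRNA. ITGA3, the laminin-binding alpha3 chain, was at 464, 469 and 476 TPM in the controls and 588, 460 and 449 TPM in IR+PR-LV. IR+PR-LV replicate 1 was thus the highest library and IR+PR-LV replicate 3 the lowest. ITGAV was at 331, 337 and 351 TPM in the controls and 319, 353 and 385 TPM in IR+PR-LV, with the lowest and the highest value in the same group. ITGA5, the fibronectin-binding alpha5 chain, was at 131, 128 and 145 TPM against 145, 123 and 125 TPM. ITGA2, a collagen-binding chain, was at 28.6, 27.9 and 32.9 TPM against 27.8, 28.9 and 33.4 TPM. In these last 2 genes the groups covered nearly the same range. ITGA3 made up 45.3% ± 3.07 and ITGAV 32.5% ± 2.78 (SD, n = 6) of the summed alpha chain TPM.

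The order ITGA3, ITGAV, ITGA5, ITGA2 held without overlap of neighbouring ranges. ITGA2 and ITGA1, the other main collagen-binding chain at 26.2 ± 5.25 TPM (SD, n = 6), could not be ordered, and neither could ITGA1 and ITGA6 by their ranges, although ITGA1 was the higher in 6 of 6 libraries. ITGA6, the laminin-binding alpha6 chain, was at 19.6 ± 1.12 TPM, so that ITGA3 stood 24.8 ± 3.28 times above it. ITGAE, the alpha chain known from intraepithelial T cells, was at 17.5 ± 0.572 TPM, but 15.8% of its exon bases also lie in NCBP3 on the same strand. ITGA7 was at 3.70 and ITGAX at 3.08 TPM, with overlapping ranges. The other alpha chains were at 1.68 TPM (ITGAM) or lower, and ITGA8 and ITGAL were listed at 0 in at least 1 library. The plot of levels in each library shows this order and the small distance between the groups.

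**Figure D1:**
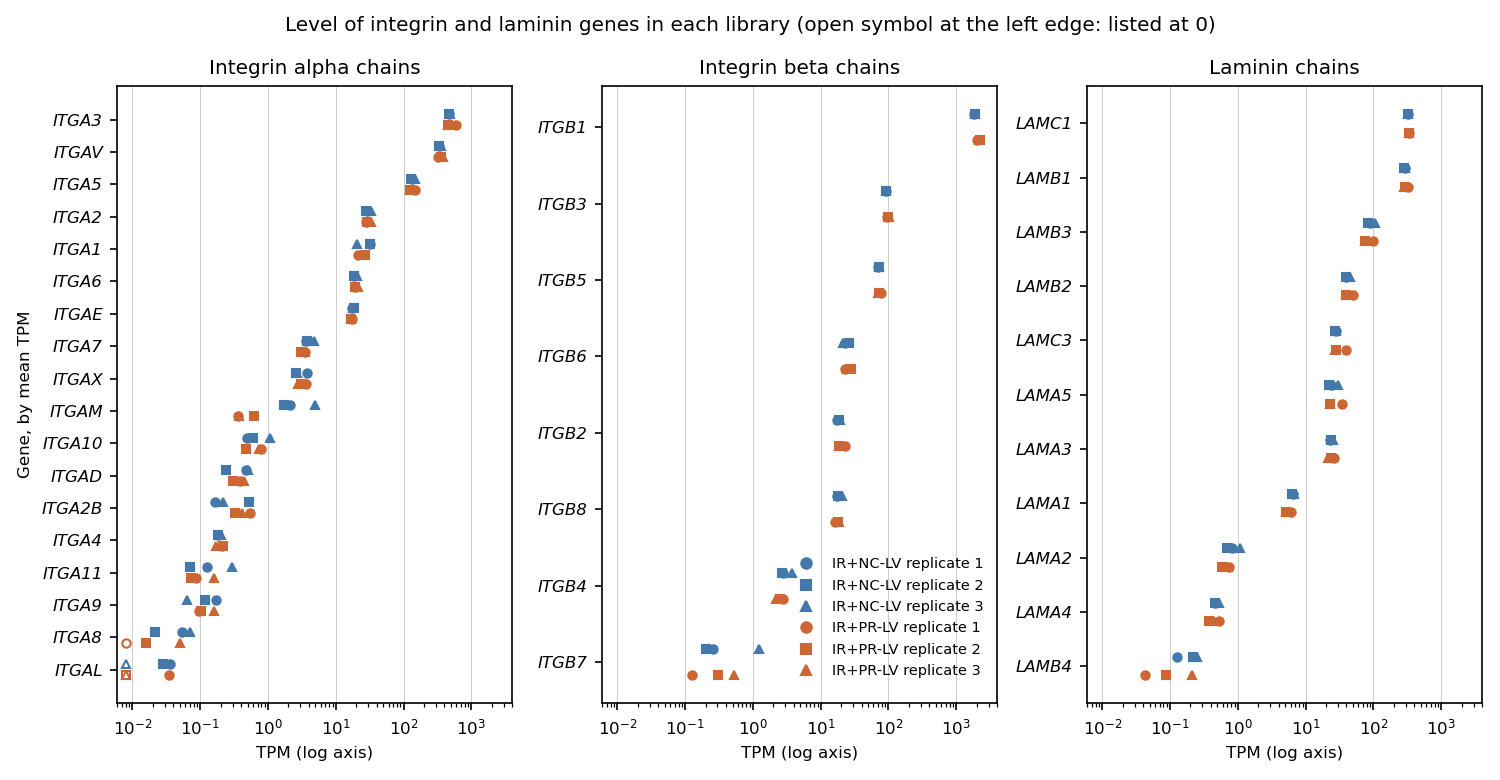
Level of 37 of the 38 genes in each of the 6 libraries, in TPM on a log axis, with genes in order of mean TPM in each panel, colours for the groups and symbol shapes for replicates; open symbols at the left edge are listed at 0. ITGB1 stands alone near the top of the scale, and ITGAM is the gene whose groups lie farthest apart.

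Set into the known pairs, 14 of 24 alpha and beta combinations had both chains at a mean of 1 TPM or more over all libraries. Within the controls this held for 14 pairs and under IR+PR-LV for 13, since ITGAM, in its pair with ITGB2, averaged 2.91 TPM in the controls and 0.446 TPM under IR+PR-LV. The less abundant chain was highest for alpha3beta1, where ITGA3 at 484 TPM was the lower, then for alphaVbeta1 (ITGAV, 346 TPM), alpha5beta1 (ITGA5, 133 TPM), alphaVbeta3 (ITGB3, 95.4 TPM) and alphaVbeta5 (ITGB5, 72.4 TPM). ITGB1 exceeded its alpha partners together: the sum of the 12 partner alphas was 0.527 ± 0.0462 of ITGB1 (ratio of TPM, SD, n = 6). In alpha6beta4, the hemidesmosome integrin, ITGA6 was 7.24 ± 1.47 times as abundant as ITGB4. For the leukocyte pairs, ITGB2 was present at 19.2 TPM while its partners ITGAX, ITGAM, ITGAD and ITGAL were at 3.08 TPM or lower. These are mRNA levels of single chains, and assembled receptors were not measured.

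Among the laminin chains, the widely expressed gamma1 and beta1 chains stood at several times the level of any alpha chain. LAMC1, found in most laminins, was at 319, 322 and 322 TPM in the controls and 336, 330 and 337 TPM in IR+PR-LV. Its spread over the 6 libraries, a coefficient of variation of 2.36%, was small, and no control library reached the lowest IR+PR-LV library. LAMB1, the beta1 chain, was at 291, 281 and 295 TPM against 327, 290 and 281 TPM. LAMB3, a beta chain of epithelial laminin, was at 90.6, 81.9 and 106 TPM against 98.7, 74.2 and 75.5 TPM. IR+PR-LV replicate 1 stood above the other libraries of its group in both beta chains.

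The alpha chains were scarce beside the others. The 5 laminin alpha genes summed to 57.1 ± 6.96 TPM (SD, n = 6), against 424 ± 31.6 TPM for the 4 beta genes. LAMA5, the main alpha chain of adult basement membranes, was at 25.9 ± 4.76 TPM and LAMA3, an alpha chain of epithelial laminin, at 24.0 ± 1.88 TPM, and their ranges overlapped. LAMA1, typical of early basement membranes, was at 6.00 ± 0.674 TPM, and LAMA2 and LAMA4, typical of muscle and vessels, were under 1 TPM. LAMB2 stood at 42.2 ± 4.93 TPM, LAMC3 at 29.7 ± 4.83 TPM and LAMB4 at 0.156 ± 0.0825 TPM. Of 13 known trimers considered, 7 had all 3 chains at a mean of 1 TPM or more, those with LAMA1, LAMA3 or LAMA5, and in each of these the alpha chain was the least abundant by its mean. Laminin-311, laminin-511 and laminin-521 thus had similar lowest chains, at 24.0, 25.9 and 25.9 TPM.

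The comparison of the groups asked whether PRDM16 overexpression in irradiated cells went with a change in these adhesion genes. Of the 31 members tested, 17 had a log2 fold change above 0 (IR+PR-LV over IR+NC-LV) and 14 below, against 51.1% above 0 among all genes. The median log2 fold change was 0.02 for the members and 0.0044 for all genes. The 7 members that were too low to test were ITGA2B, ITGA4, ITGA8, ITGA9, ITGA11, ITGAL and ITGB7, whose highest count in any library was 15. The groups did not overlap in CPM for 6 members, or 19.4%, against 17.0% of all genes. ITGB1, ITGB3, ITGA6 and LAMC1 were higher in every IR+PR-LV library (all genes 7.46%), and ITGAM and ITGA7 were lower (all genes 9.54%).

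ITGAM encodes alphaM, the CD11b chain of the complement receptor of myeloid cells. Its counts were 52, 54 and 95 in the controls and 9, 26 and 10 under IR+PR-LV. In TPM these were 2.09, 1.70 and 4.95 against 0.357, 0.614 and 0.368. Every IR+PR-LV library was below every IR+NC-LV library, and IR+NC-LV replicate 3 was the highest. The mean was 4.17 ± 2.33 CPM in the controls against 0.670 ± 0.225 CPM (SD, n = 3 each). The log2 fold change was -2.54 (SE 0.42), with an unadjusted p of 0.00018 and an adjusted p of 0.0755, so it did not pass the threshold in edgeR's quasi-likelihood test. With DESeq2 the adjusted p was 7.6e-06, in a fit where 174 of 15340 genes passed, against 10 in the main fit. With no filter on low counts in edgeR it was 1.3e-08, in a fit where 342 of 28831 genes passed. With at least 10 counts required in every library ITGAM was not tested, since IR+PR-LV replicate 1 had 9. Leaving out 1 library at a time gave log2 fold changes from -2.91 to -2.00 with adjusted p from 0.0413 to 0.259. It passed only without IR+NC-LV replicate 2 among these.

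ITGAM lies at chr16:31259975-31332877 on the plus strand (hg38), and none of its 4819 exon bases is shared with another listed gene. The genes that follow it, ITGAX and ITGAD, encode other beta2-binding alpha chains and had log2 fold changes of 0.09 (SE 0.20) and -0.05 (SE 0.37). ITGB2, the beta chain that alphaM needs, had a log2 fold change of 0.16 (SE 0.11, adjusted p = 0.647). Of 9 leukocyte markers, TYROBP had 1 count, CD3E 2 and PTPRC 10 over all 6 libraries, so these defining markers of blood cells were near 0. CD14 had 242 counts, LYZ 45, CD53 35 and SPI1 24. CD53, a leukocyte membrane protein gene, was lower in every IR+PR-LV library, at 0.494 ± 0.0606 TPM in the controls against 0.319 ± 0.0758 TPM, and LYZ was at 1.01 ± 0.428 against 0.692 ± 0.131 TPM with overlapping groups (SD, n = 3 each). Both were too low for the fit, and 17.0% of all genes tested had groups without overlap in CPM. CD14 was at 4.41 ± 0.961 TPM in the controls and 3.88 ± 0.676 TPM under IR+PR-LV (log2 fold change -0.13, SE 0.23), with overlapping groups. SPI1 was at 0.249 against 0.227 TPM and CD3E at 0.0475 against 0.0279 TPM. PTPRC and TYROBP had higher means under IR+PR-LV, at 0.0296 against 0.0552 and 0 against 0.103 TPM, from the few counts given above. The list summed to 188 to 206 TPM in the controls and 160 to 175 TPM in IR+PR-LV. Most of this was CD68, a lysosomal protein gene also active outside macrophages, at 193 ± 10.2 TPM in the controls and 161 ± 7.51 TPM under IR+PR-LV (log2 fold change -0.22, SE 0.08, adjusted p = 0.405). The part of these markers in the ITGAM result was not tested. In bulk mRNA, fewer cells with a transcript and less transcript per cell cannot be told apart.

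ITGB1 had the highest log2 fold change of the members tested. The CPM were 2230, 2374 and 2153 in the controls and 2511, 2801 and 2668 in IR+PR-LV, and the lowest IR+PR-LV library was above the highest IR+NC-LV library. The mean was 2253 ± 112 CPM in the controls against 2660 ± 145 CPM (SD, n = 3 each), a fitted ratio of 1.18 and a log2 fold change of 0.24 (SE 0.06). Unadjusted p was 0.00465 and adjusted p 0.264, which did not pass the threshold. DESeq2 gave an adjusted p of 0.0373. Leaving out each library in turn in edgeR gave log2 fold changes from 0.20 to 0.28 with adjusted p from 0.139 to 0.764, none past the threshold. ITGB1 lies at chr10:32900318-32958230 on the minus strand. Because it makes up so much of the total, the sum of all 26 integrins followed it, at 3132 ± 60.7 TPM in the controls and 3450 ± 52.2 TPM in IR+PR-LV with no overlap.

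The other members without overlap differed by less. ITGB3 was at 169, 173 and 156 CPM in the controls and 176, 185 and 185 CPM in IR+PR-LV, with a log2 fold change of 0.13 (SE 0.06, adjusted p = 0.502). LAMC1 was at 778, 800 and 732 CPM against 829, 821 and 820 CPM, a log2 fold change of 0.10 (SE 0.06, adjusted p = 0.590). ITGA6 was at 34.6, 35.9 and 35.6 CPM against 36.2, 36.7 and 40.1 CPM, a log2 fold change of 0.09 (SE 0.07, adjusted p = 0.712). Its groups overlapped on the TPM scale, where IR+NC-LV reached 20.4 and IR+PR-LV began at 19.1. ITGA7, the alpha7 chain known as the laminin receptor of muscle, was at 5.37, 5.65 and 6.77 CPM against 5.36, 4.65 and 5.33 CPM, a log2 fold change of -0.21 (SE 0.15, adjusted p = 0.670). The highest IR+PR-LV library and the lowest IR+NC-LV library of ITGA7 were thus almost level.

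**Figure D2:**
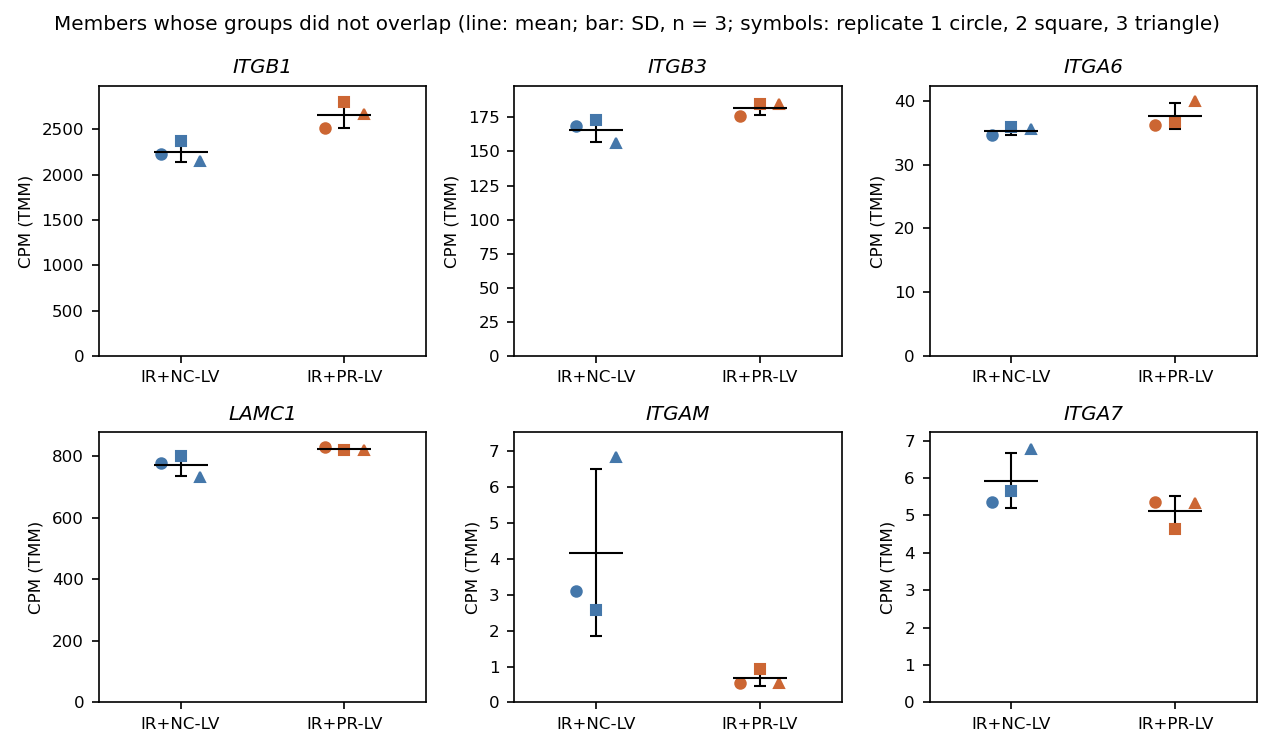
CPM, scaled by the TMM method, of the 6 members whose groups did not overlap, with a point per library, the mean as a line and the SD (n = 3) as a bar; every axis starts at 0. ITGAM is at a mean of 4.17 against 0.670 CPM, while ITGB1, ITGB3, ITGA6, LAMC1 and ITGA7 differ by small parts of their level.

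By class, the 12 integrin alpha genes tested had 6 log2 fold changes above 0 and 6 below, and the 7 integrin beta genes 5 above and 2 below. The most abundant alphas differed little, with log2 fold changes of 0.12 (SE 0.10) for ITGA3, 0.09 (SE 0.07) for ITGAV, 0.00 (SE 0.07) for ITGA5 and 0.05 (SE 0.08) for ITGA2. The beta partners of alphaV were at 0.10 (SE 0.07) for ITGB5, 0.13 (SE 0.12) for ITGB6 and -0.01 (SE 0.08) for ITGB8. The collagen-binding ITGA1 was at -0.22 (SE 0.18) and the hemidesmosome chain ITGB4 at -0.25 (SE 0.17). None of these passed the test, and their adjusted p lay between 0.645 and 0.997.

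No laminin gene had an unadjusted p under 0.05 in the main edgeR fit or DESeq2. Other edgeR settings gave such a p for some laminins. These were LAMC3 with no filter on low counts, and LAMA1, LAMC1 and LAMC3 with each library's trend with GC content removed. They also were LAMA1 and LAMB3 without IR+PR-LV replicate 1, and LAMB4 and LAMC3 without IR+PR-LV replicate 3. The 12 laminins had 6 log2 fold changes above 0 and 6 below, with a median of -0.00077. The closest to the threshold was LAMA1 at -0.21 (SE 0.10, unadjusted p = 0.0682, adjusted p = 0.506). The log2 fold change was 0.02 for LAMA3 (95% interval -0.17 to 0.21) and -0.12 for LAMB3 (-0.38 to 0.14). LAMB4 had the lowest estimate, -0.75 (SE 0.52), from 2 to 13 counts per library.

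**Figure D3:**
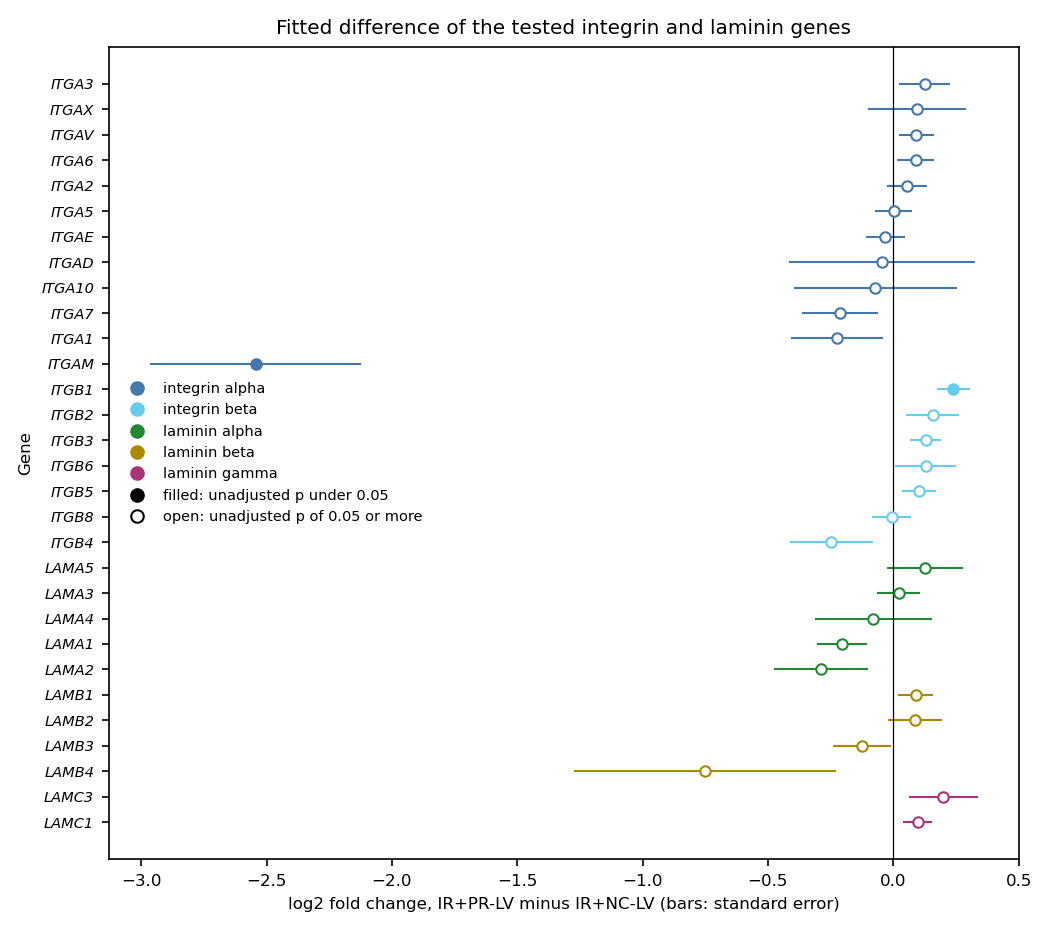
Log2 fold change (IR+PR-LV minus IR+NC-LV) of 30 of the 31 tested members by class, with the standard error as a bar, filled where unadjusted p was under 0.05. ITGAM at -2.54 stands apart, ITGB1 at 0.24 is the highest, and the laminins lie on both sides of 0.

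Over all genes, IR+NC-LV replicate 3 and IR+PR-LV replicate 1 were most often the highest or the lowest library. Only for IR+PR-LV replicate 1 was the deviation from the other libraries set beside base composition. IR+PR-LV replicate 1 was the highest library for 12 of the 31 tested members, against 23.6% of all genes. IR+NC-LV replicate 3 was the lowest library for 12 members, against 24.0% of all genes, and the highest for 7, against 24.1% of all genes. The median GC content of the members' transcripts was 52.3%. For the 15 members above it, replicate 1 was a median of 0.22 above the mean of the other 5 libraries on the log2(CPM + 0.5) scale, and for the 16 at or under it 0.0045. Across these 31 genes, which are not independent replicates, GC content and this deviation had a Pearson r of 0.405, and across 13871 genes with a known GC content 0.423. LAMC3, LAMA5 and ITGA3, with GC contents of 64.3%, 66.4% and 61.3%, were 0.53, 0.51 and 0.37 higher in that library. Without it, the log2 fold change of ITGA3 was -0.01, and 6 of 32 tested members, or 18.8%, had an unadjusted p under 0.05 against 16.4% of all genes in that fit (ITGAM, ITGAV, ITGB1, ITGB3, LAMA1 and LAMB3), none with an adjusted p under 0.05. With each library's trend with GC content removed, a setting chosen after seeing the data, 9 of 31 members, or 29%, had an unadjusted p under 0.05. Of the 13871 genes 16.0% did. The 9 were ITGA3, ITGAM, ITGB1, ITGB2, ITGB3, ITGB5, LAMA1, LAMC1 and LAMC3, and again no member passed the threshold. ITGAM was then at -2.53 and ITGB1 at 0.23.

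**Figure D4:**
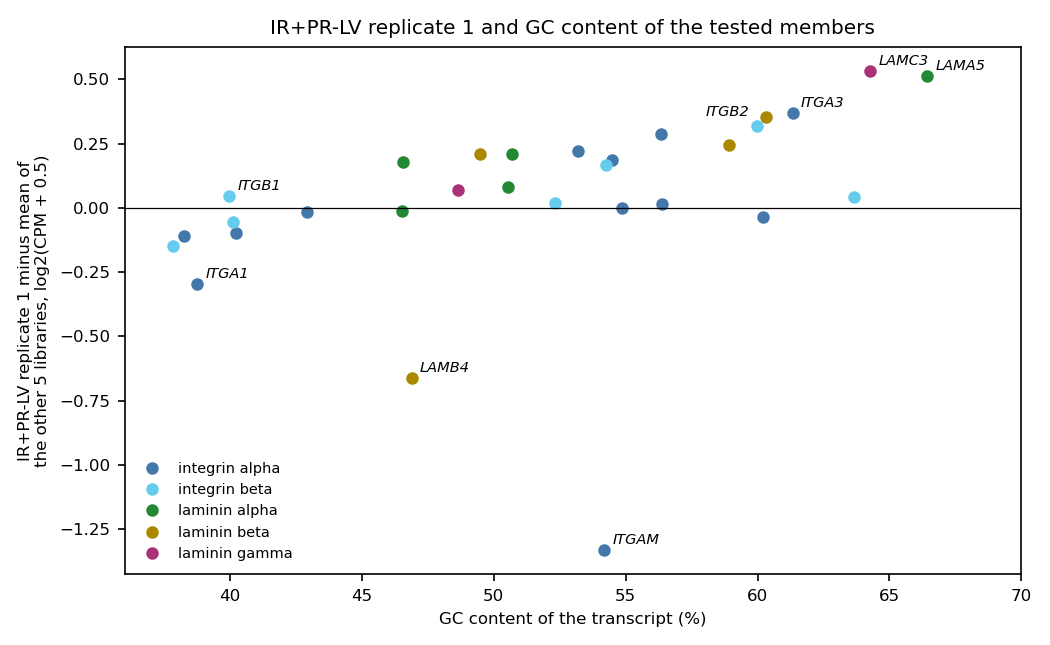
Deviation of IR+PR-LV replicate 1 from the mean of the other 5 libraries, on the log2(CPM + 0.5) scale, against the GC content of the transcript in percent, for 30 of the 31 tested members, coloured by class. LAMC3 and LAMA5, both rich in GC, lie highest, ITGA7 at 60.2% GC lies near 0, and ITGAM and LAMB4 lie far below the rest.

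The companion genes of integrins and laminins had no gene past the threshold of edgeR's test in any of 6 lists. DESeq2 placed 2 past it, where 1.13% of all genes passed. These were LPXN, 1 of 39 tested adhesome genes, and ADAM9, 1 of 32 tested other integrin ligands. In the integrin adhesome, the proteins that couple integrins to actin and signalling, 4 of 39 tested genes (10.3%) had an unadjusted p under 0.05, a share near the 10.5% of all genes. LPXN, the adaptor leupaxin, was at 5.27, 5.24 and 7.09 TPM in the controls and 3.31, 3.73 and 3.48 TPM in IR+PR-LV, with no overlap and a log2 fold change of -0.69 (SE 0.14, adjusted p = 0.136). The adaptor CRK had a log2 fold change of 0.34 (SE 0.11, adjusted p = 0.371). PPFIA1, the scaffold liprin-alpha1, and ACTN4, an actinin that crosslinks actin, had 0.84 (SE 0.27) and 1.0 (SE 0.36), but their groups overlapped. ACTN4 was at 105 TPM in IR+PR-LV replicate 1 and 30.3 TPM in replicate 2, so its libraries disagreed within the group. CRK, PPFIA1, ACTN4 and ADAM9 each had a second listed copy with at most 41 counts in any library.

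Among 20 tested basement membrane partners, 3 (15%) had an unadjusted p under 0.05, against 10.5% of all genes. COL15A1, a collagen at the edge of basement membranes, was at 1.31, 1.06 and 1.47 TPM in the controls and 0.666, 0.667 and 0.681 TPM under IR+PR-LV, with a log2 fold change of -0.87 (SE 0.20, adjusted p = 0.205). NID1, the nidogen that links laminin to type IV collagen, and SPARC, a collagen-binding matrix protein, had log2 fold changes of 0.13 each (SE 0.05 and 0.06). Among 32 tested other integrin ligands, 2 (6.25%) had an unadjusted p under 0.05, against the same 10.5%. ADAM9, a disintegrin metalloprotease, was at 16.1, 14.4 and 24.7 TPM in the controls and 9.01, 10.1 and 10.7 TPM under IR+PR-LV, with a log2 fold change of -0.83 (SE 0.16, adjusted p = 0.107). ICAM2, a ligand of beta2 integrins, was at 4.13, 5.68 and 6.08 TPM against 1.12, 2.76 and 3.12 TPM, a log2 fold change of -1.10 (SE 0.32, adjusted p = 0.310). JAM3, a junction protein that alphaM beta2 can bind, had a log2 fold change of 0.15 (SE 0.07, adjusted p = 0.502). For LPXN, COL15A1, ADAM9 and ICAM2 every IR+PR-LV library was below every control in CPM. For CRK, NID1, SPARC and JAM3 every IR+PR-LV library was above. Groups did not overlap for 10.3% of the tested adhesome genes (1 higher, 3 lower) and 15% of the basement membrane partners (2 higher, 1 lower). Among other integrin ligands this held for 12.5% (1 higher, 3 lower), against 17.0% of all genes.

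The remaining lists had no gene with an unadjusted p under 0.05. The smallest p among 13 other laminin receptors belonged to RPSA, the ribosomal protein also known as the laminin receptor, with SDC1 and BCAM next, at log2 fold changes of 0.12, 0.15 and 0.20. All 5 tested hemidesmosome partners were below 0, where 51.1% of all genes were above 0, but 4 lay within 1 SE of it. COL17A1 was at -0.37 (SE 0.19, adjusted p = 0.542), CD151 at -0.06 (SE 0.06) and DST at -0.03 (SE 0.06). PLEC and ERBIN were at -0.01 each (SE 0.14 and 0.07). Among 12 tested inhibitors and traffic proteins of integrins, DAB2, RAB21 and NUMB had the smallest p, at -0.14, -0.11 and -0.11. The medians of the 6 lists lay between -0.03 and 0.11, beside 0.0044 for all genes.

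**Figure D5:**
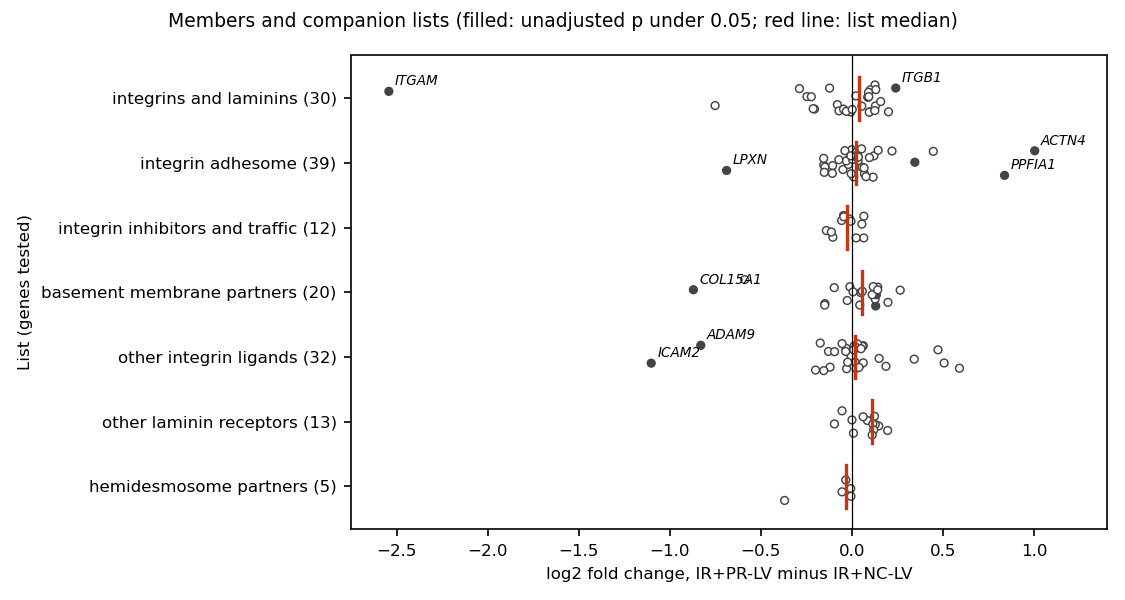
Log2 fold change of each tested gene of the integrins and laminins and of the 6 companion lists, with a point per gene, filled where unadjusted p was under 0.05, and a red line at the median of each list. List medians lie close to 0, and among points far from 0 are ITGAM, LPXN, COL15A1, ADAM9 and ICAM2 on the lower side, with the open point of LAMB4 at -0.75, and ACTN4 and PPFIA1 on the upper side.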

How the data were processed

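Poly(A) mRNA of 6 libraries (3 IR+NC-LV, 3 IR+PR-LV) was sequenced as paired-end reads on a DNBseq T7 instrument. Reads of low quality and adapters were removed, as the study's methods state. The submitters' processing notes name CASAVA, featureCounts 2.0.1 and DESeq2 1.16.1 with the hg38 build, and the aligner was not given in the sources used here. The authors deposited whole-number counts per gene, together with TPM and FPKM values that follow from these counts and the listed exon lengths. The FPKM values the authors deposited were checked against the counts and not used further. Strand use in counting is not stated, so reads of overlapping genes cannot be separated.

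Counts were tested with edgeR 4.0.16 in R 4.3.3 (quasi-likelihood F-test, TMM scaling, filterByExpr at its defaults of 10 counts and 15 in total), with Benjamini-Hochberg adjustment over all 15340 genes and a threshold of 0.05. Intervals use the t quantile at each gene's quasi-likelihood degrees of freedom. CPM are scaled by TMM, and levels between genes are compared in TPM. No pair of libraries agreed within sampling noise. On simulated data the fit was tested before use. GC content is that of each gene's longest GENCODE transcript, and 13871 of the tested genes had one. Members given with each library's values were those with an adjusted or unadjusted p under 0.05, those whose groups did not overlap, and the 4 highest by mean TPM among alpha chains, beta chains and laminin chains. From each companion list the genes past the threshold and the 3 with the smallest unadjusted p were named. Other members are given by level, count and range. Alternatives were other scalings, DESeq2 1.42.0, other filters, robust empirical Bayes, a replicate block, summed gene copies, each library left out and removal of GC trends. The members and lists were chosen with earlier results of these data known. The values of 1 member and of 1 marker gene are not reported here. Integrin pairs and laminin trimers are textbook combinations.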

Additional observations from a re-analysis of the deposited data

How the results depend on the processing

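Under the alternatives run, 235 values of single genes kept direction and side of the threshold, 8 reversed direction and 4 passed the threshold. The log2 fold changes counted are those of the members given with each library's values, so reversals in other members are not among the 8. The 235 include mean levels in another scaling, which were set to the same sum. Of the counts of genes and the medians, 39 stayed and 22 moved. The number of all genes past the adjusted threshold was 10, and it was 174 with DESeq2, 342 with no filter on low counts, 42 with robust empirical Bayes and 1 to 28 when each library was left out. The number of members past it was 0, and it was 2 with DESeq2 (ITGAM, ITGB1), 1 with no filter, 1 at an adjusted p under 0.1 and 0 to 1 when each library was left out (ITGAM, without IR+NC-LV replicate 2). Members with an unadjusted p under 0.05 numbered 1 with at least 10 counts in every library, where ITGAM was not tested, 9 with the GC trend removed and 2 to 6 with a library left out (6 without IR+PR-LV replicate 1). The median log2 fold change of the members was 0.069 with at least 10 counts in every library, 0.034 with the GC trend removed, and -0.050 to 0.073 with a library left out. The estimate of ITGA5, near 0, turned negative with upper-quartile scaling (-0.010) and with at least 10 counts in every library (-0.00017), and leaving out libraries gave -0.080 to 0.043. Leaving out libraries also turned ITGA3 (-0.010 to 0.20) and ITGA2 (-0.019 to 0.11). Of 30 tested members, 12 took both signs in this way, 8 integrins and 4 laminins (LAMA3, LAMA4, LAMA5 and LAMB2). The cause was not tested.

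Same-numbered libraries of the groups had correlations of -0.0088, 0.0514 and 0.0706 in their deviations from the group means. With 3 libraries per group these values cannot tell whether same-numbered libraries were handled together, which the labels do not state. With a replicate block 3 genes passed in all and 0 members, and ITGA5 was at -0.0026. The filter on low counts kept 7 members out of the test.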
